A study of Mus musculus with 8 samples.

Results

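The genes described here are the detected Zfp zinc finger genes of mouse embryonic stem cells (ESCs), that is, the genes whose symbol on the array is Zfp followed by a number. Of 328 such genes measured, after Zfp281, Zfp148 and Zfp42 were set aside, 151 were kept, out of 18193 genes on the array. They were chosen by measured values, since each had a probe set detected in every array of at least 1 genotype. Detection means a Detection p-value under 0.05 from the Affymetrix software, which asks whether the perfect-match probes were brighter than their mismatch partners. The remaining 177 Zfp genes did not reach that level in any genotype.

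RNA was profiled on Affymetrix mouse genome arrays from 3 Zfp281 null lines (7, 3.34 and 3.38), 2 heterozygous lines (5 and 3.1) and 3 wild-type lines (3, 3.2 and 3.3), with 1 array a line. Targeting replaced the whole of Zfp281, a Krüppel-like zinc finger factor and Nanog partner, with a floxed neomycin resistance gene. The study shows null alleles both with and without that resistance gene. The lines grew out of blastocysts from heterozygous matings. No line received any treatment, and all of them were kept in serum and LIF on mouse embryonic fibroblasts, so the RNA can hold a feeder share. Each genotype is a small set of separately derived lines, and a p-value here measures the spread between lines and arrays together. In bulk RNA, fewer cells that express a gene and less RNA per cell cannot be told apart.

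The labels were first checked on the targeted gene. The log2 level of Zfp281, on the scale of the robust multi-array average (RMA), was 3.64 to 5.23 in null, 6.69 and 6.97 in heterozygous and 6.72 to 7.93 in wild-type lines. Null lines lay below all others, with a log2 fold change over wild-type lines of −2.54 ± 0.45 (SE, adjusted p = 0.0467 in limma). Pou5f1, Sox2 and Nanog, the core pluripotency factors, were detected in all 8 arrays, and of 10 pluripotency markers 1 (Dppa5a) passed as higher in null lines. Of 10 endoderm markers, 1 (Lamb1) passed as lower. The arrays also differed in RNA quality. The 3′ minus 5′ difference of the Gapdh and β-actin control probe sets averaged 2.68 to 3.71 log2 units in null lines, 4.49 to 4.80 in heterozygous lines and 4.23 to 4.86 in wild-type lines, and genotype accounted for 79.1% of its variance. Null lines did not overlap the others, so genotype and RNA quality cannot be told apart in this design. Fits with this value as a term compare null lines with the others at values they did not share. For 17 of 19 markers of feeder fibroblasts the mean of null lines was the lower one, though at an adjusted p under 0.05 none passed. Their summed level, as log2, was 12.13 to 12.32 in null lines, 12.64 to 12.85 in heterozygous lines and 12.44 to 12.99 in wild-type lines. Null line 7 shared a litter with wild-type line 3, and null line 3.38 with wild-type line 3.3. The part of feeder cells in the differences below was not tested.

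Cys2-His2 zinc finger genes form the largest class of transcription factor genes in the mouse, and most of those named Zfp belong to it. Many also encode a KRAB domain, which recruits the corepressor KAP1 (Trim28) and with it the histone methyltransferase Setdb1 and DNA methylation. In ESCs and the early embryo this machinery silences retroelements and protects the methylation of imprinted regions, while other Zfp proteins act in chromatin complexes, on RNA, at the ribosome or on the mitotic spindle. KRAB zinc finger genes lie in clusters that arose by local duplication, and the transcripts of neighbours can be alike enough to share probes.

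Between null and wild-type lines, 3 of the 151 genes passed an adjusted p under 0.05. Zfp57 and Zfp740 rose in null lines (0.693% of all genes and 1.55% of detected genes passed as higher) and Zfp946 fell (0.440% and 0.999% passed as lower). The promoters of these 3 genes, and that of Zfp936, the only other detected Zfp gene more than 2-fold higher in null lines, are shown because the results turn on them. They run from 250 bases before to 50 bases after the annotated start, on the strand of the gene, in RefSeq's GRCm38.p6 build, and all 4 genes lie on the plus strand. The windows are chr17:37000913-37001212 for Zfp57 (the most upstream of 3 listed starts), chr15:102203750-102204049 for Zfp740 (the more upstream of 2), chr17:22423952-22424251 for Zfp946 and chr7:43177340-43177639 for Zfp936. Capitals mark each match to GGGGAGGG or its reverse complement CCCTCCCC, a G-rich element of the kind bound by Zfp281 and its paralog.
Zfp57 promoter: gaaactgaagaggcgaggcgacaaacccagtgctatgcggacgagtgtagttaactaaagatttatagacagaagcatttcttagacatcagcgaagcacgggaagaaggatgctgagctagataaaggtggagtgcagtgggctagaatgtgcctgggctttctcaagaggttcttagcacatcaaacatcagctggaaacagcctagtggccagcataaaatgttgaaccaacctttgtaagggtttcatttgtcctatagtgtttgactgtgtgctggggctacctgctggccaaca
Zfp740 promoter: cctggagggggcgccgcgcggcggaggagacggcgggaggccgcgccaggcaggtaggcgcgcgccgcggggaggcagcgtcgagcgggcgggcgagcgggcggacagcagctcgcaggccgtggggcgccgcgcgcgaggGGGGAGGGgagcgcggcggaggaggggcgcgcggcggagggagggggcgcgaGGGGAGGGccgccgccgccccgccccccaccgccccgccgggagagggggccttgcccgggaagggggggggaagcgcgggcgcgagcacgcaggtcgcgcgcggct
Zfp946 promoter: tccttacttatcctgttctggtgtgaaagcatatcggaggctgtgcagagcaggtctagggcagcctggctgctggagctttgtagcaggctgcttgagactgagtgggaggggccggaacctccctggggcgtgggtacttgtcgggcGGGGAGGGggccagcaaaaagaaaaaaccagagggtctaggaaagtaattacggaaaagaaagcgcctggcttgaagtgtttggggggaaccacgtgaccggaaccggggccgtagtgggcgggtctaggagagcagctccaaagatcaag
Zfp936 promoter: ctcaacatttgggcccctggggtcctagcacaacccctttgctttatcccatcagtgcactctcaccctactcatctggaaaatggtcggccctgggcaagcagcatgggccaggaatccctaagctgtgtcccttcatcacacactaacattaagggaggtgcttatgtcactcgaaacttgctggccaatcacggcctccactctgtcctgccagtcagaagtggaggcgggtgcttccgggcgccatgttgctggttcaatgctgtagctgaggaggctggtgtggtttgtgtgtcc

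The Zfp740 window held 2 matches and the Zfp946 window 1, and none stood in the windows of Zfp57 or Zfp936. Neither of the other listed Zfp57 starts, nor the other Zfp740 start, added a match. Of 32851 mouse promoters of this length, 10.8% held the element, against 13.6% of the 154 listed promoters of the detected Zfp genes, which cover 124 of the 151. A match is a description of these letters in this window and says nothing of whether a protein sits there.

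Zfp57 encodes the KRAB zinc finger protein that binds methylated imprinting control regions and keeps their methylation through KAP1. Its log2 level was 7.37, 7.65 and 7.55 in null lines 7, 3.34 and 3.38. Heterozygous lines 5 and 3.1 gave 6.63 and 5.78, and wild-type lines 3, 3.2 and 3.3 gave 6.28, 5.66 and 6.15. Other values below keep this order of lines. All 3 null lines lay above every other line, and heterozygous line 3.1 fell within the wild-type range. The log2 fold change was 1.49 ± 0.24 (SE), or 2.81-fold, in null over wild-type lines (limma, adjusted p = 0.0388) and 1.31 ± 0.27 in null over heterozygous lines (adjusted p = 0.0792). Its probe set was detected in 3 of 3 null lines, 1 of 2 heterozygous lines and 2 of 3 wild-type lines, so Zfp57 entered the group through the null genotype alone.

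Zfp740 encodes a Cys2-His2 zinc finger protein. Its log2 level was 6.39, 6.26 and 6.31 in null lines, 5.86 and 5.41 in heterozygous lines and 5.56, 5.39 and 5.21 in wild-type lines. The null lines lay close together and above all others. Its probe set was detected in every null line, 1 heterozygous line and no wild-type line, so it too entered through the null genotype. Its mean level was 1.91-fold higher in null than in wild-type lines, an estimate and not a lower bound. The log2 fold change was 0.93 ± 0.15 (adjusted p = 0.0384), and 0.68 ± 0.16 in null over heterozygous lines (adjusted p = 0.109).

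Zfp946 belongs to a cluster of zinc finger genes on chromosome 17. Its log2 level was 3.61, 3.59 and 3.82 in null lines, 3.93 and 4.37 in heterozygous lines and 4.59, 5.44 and 4.95 in wild-type lines. The genotypes did not overlap in any pair, and the heterozygous lines stood between the others. The log2 fold change was −1.32 ± 0.22 in null over wild-type lines (adjusted p = 0.0422), −0.84 ± 0.24 in heterozygous over wild-type lines (adjusted p = 0.997) and −0.48 ± 0.24 in null over heterozygous lines (adjusted p = 0.447). Zfp946 was detected in all 8 arrays.

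The 3 calls lay near the threshold. None of the 3 genes passed when any 1 null or wild-type line was left out, where their adjusted p ranged from 0.0535 to 0.138 for Zfp57, from 0.0559 to 0.162 for Zfp740 and from 0.0551 to 0.171 for Zfp946, while their log2 fold changes stayed between 1.30 and 1.61, 0.84 and 1.02, and −1.52 and −1.09. With the 3′ minus 5′ value in the model their log2 fold changes were 1.47, 0.89 and −1.19, and none passed, nor did any gene on the array. Within the 2 litter-matched pairs alone, with litter as a replicate block, Zfp57 (1.24, adjusted p = 0.0458) and Zfp946 (−1.05, adjusted p = 0.0488) passed, Zfp740 did not (0.96, adjusted p = 0.0625), and Zfp936 was added. That fit holds few lines for its terms, so its p-values lean on the spread shared across all genes. Each of the 3 genes has 1 probe set.

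**Figure D1:**
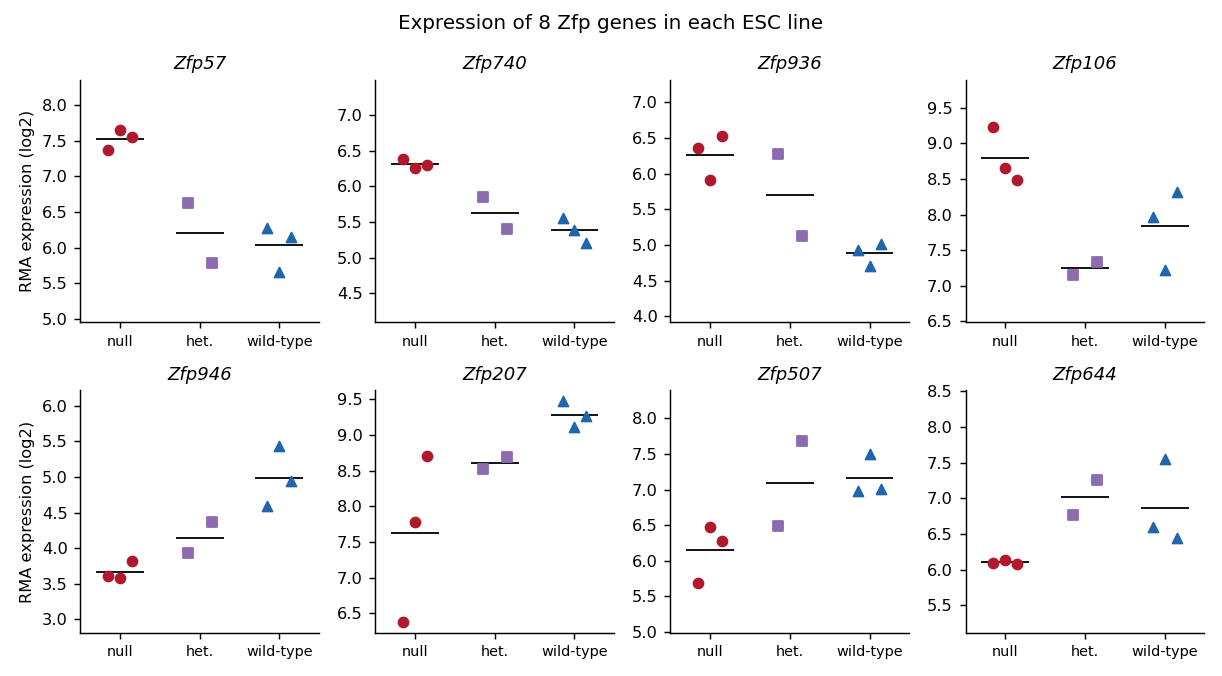
RMA expression (log2, y axis) of 8 Zfp genes in null, heterozygous and wild-type ESC lines (x axis). Each point is 1 line and each bar the mean of its genotype, and every panel spans 3.4 log2 units. The 8 genes were picked from those whose null and wild-type lines do not overlap. The heterozygous lines of Zfp936 and Zfp507 lie far from each other.

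In all, 5 of the 151 genes (3.31%) were past 2-fold between null and wild-type lines, against 2.47% of all 18193 genes and 5.74% of the 7306 genes detected by the same rule, which are called detected genes here. At an adjusted p under 0.05 the 3 genes made 1.99%, against 1.13% of all genes and 2.55% of detected genes. Both shares lay near the background. Since Zfp57 and Zfp740 entered only through the genotype in which they were high, the count among the 102 genes detected in every array was 1 (0.980%), Zfp946, with 0 higher. At an unadjusted p under 0.05 there were 28 genes, which is 18.5%, against 16.4% of all genes and 31.7% of detected genes.

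Besides Zfp57 and Zfp946, the genes past 2-fold were Zfp936, Zfp207 and Zfp507. Zfp936, a zinc finger gene on chromosome 7, measured 6.36, 5.91 and 6.53 in null lines, 6.28 and 5.12 in heterozygous lines and 4.93, 4.70 and 5.01 in wild-type lines. Heterozygous line 5 stood within the null range and line 3.1 just above the wild-type lines. Its log2 fold change was 1.38 ± 0.28 (adjusted p = 0.0627). Under the alternatives its adjusted p ran from 0.0346, with only detected genes fitted, to 1.00. Its log2 fold change was 0.79 with the 3′ minus 5′ value in the model and 0.87 with the signal intensities, both short of 2-fold, and 1.47 (adjusted p = 0.0405) within the litter-matched pairs.

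Zfp507 measured 5.70, 6.48 and 6.27 in null lines, 6.49 and 7.68 in heterozygous lines and 6.97, 7.50 and 7.01 in wild-type lines. Its log2 fold change was −1.01 ± 0.32 (adjusted p = 0.16), with null lines below the lines of both other genotypes. With the 3′ minus 5′ value in the model the estimate was 0.02.

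Zfp207 (BuGZ) is a spindle protein that loads Bub3 at kinetochores and also acts in splicing. By its chosen probe set it measured 6.38, 7.78 and 8.70 in null lines, 8.53 and 8.69 in heterozygous lines and 9.47, 9.12 and 9.27 in wild-type lines. The null lines were spread over more than 2 log2 units, and the log2 fold change was −1.67 ± 0.48 (adjusted p = 0.128). It was −1.04 without null line 7 and −2.21 without null line 3.38, where Zfp207 passed (adjusted p = 0.0479). With the 3′ minus 5′ value in the model the estimate was 0.01. Other probe sets of Zfp207 did not move alike, as described below.

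**Figure D2:**
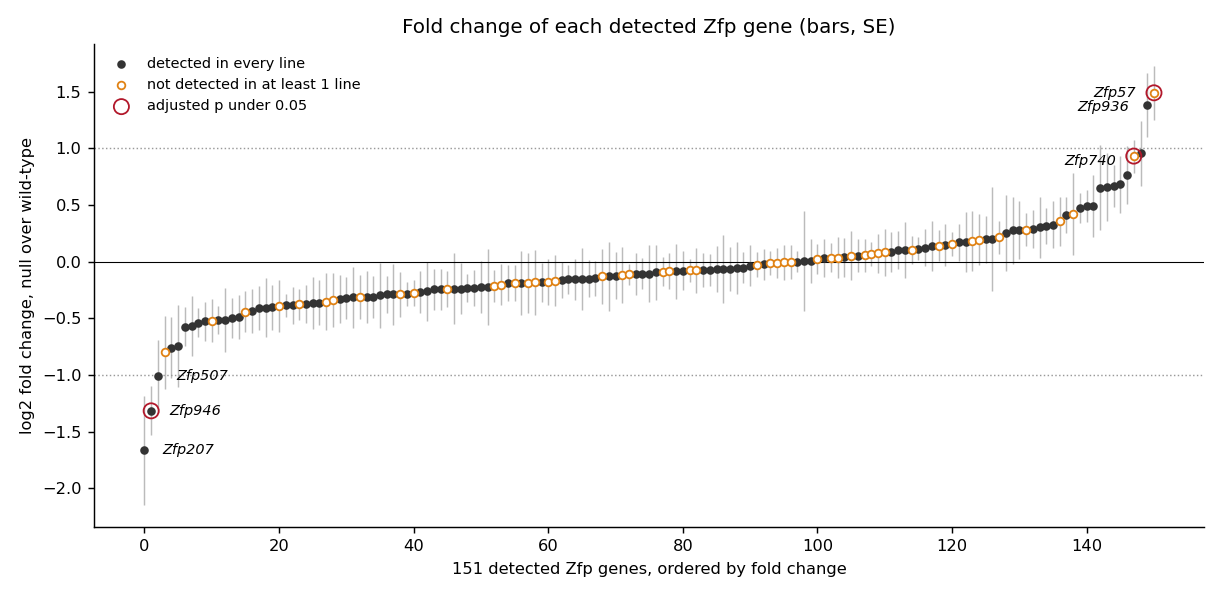
Log2 fold change of null over wild-type lines (y axis) for each of the 151 detected Zfp genes, in rank order (x axis), with SE as bars. Filled points were detected in every line, open points were not detected in at least 1 line, red rings mark an adjusted p under 0.05, and the dotted lines mark 2-fold. Of the 151 genes, 98 lie below 0.

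Most detected Zfp genes had a lower mean in null lines. Of the 151, 98 (64.9%) were lower, against 53.2% of all genes and 52.5% of detected genes. The median log2 fold change was −0.11 for the Zfp genes, −0.01 for all genes and −0.02 for detected genes. Since a gene high in 1 genotype could enter through that genotype alone, the 102 genes detected in every array were counted apart, and 68 of them (66.7%) were lower, with a median of −0.13. For these 102 the share was 54.9% and the median −0.03 without wild-type line 3.2. Leaving out null line 3.34 gave 55.9% and −0.07. They were 52.9% and −0.03 with the 3′ minus 5′ value in the model. The 177 Zfp genes left out as not detected gave 115 lower (65.0%) and a median of −0.05.

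This lean was small beside the spread between lines. The SD between lines of a genotype had a median of 0.26 log2 units over the 151 genes, against 0.25 over detected genes. It also rested on single lines. Without wild-type line 3.2 the share lower was 55.6% and the median −0.02, against 51.4% of all genes lower, and without null line 3.34 the share was 56.3% and the median −0.05. With the 3′ minus 5′ value in the model the share was 55.6% and the median −0.06. Within the litter-matched pairs, which hold neither wild-type line 3.2 nor null line 3.34, 48.3% of the 151 genes were lower, against 53.1% of all genes, and the median was 0.0077.

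Wild-type line 3.2 was the highest of the wild-type lines for 84 of the 151 genes (55.6%), against 38.6% of detected genes, and 30.4% of its probe sets were called Present, the lowest share among wild-type lines. Null line 3.34 was the lowest null line for 69 genes (45.7%, against 36.8% of detected genes). Null line 3.38 was the highest null line for 75 genes (49.7%, against 44.6%). By line, the median difference of the 151 genes from the wild-type mean was −0.14, −0.20 and 0.01 in null lines 7, 3.34 and 3.38. It was 0.09 and −0.03 in heterozygous lines 5 and 3.1. The wild-type lines 3, 3.2 and 3.3 gave −0.10, 0.14 and −0.04. The lines of a genotype thus differed by as much as the genotypes did.

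**Figure D3:**
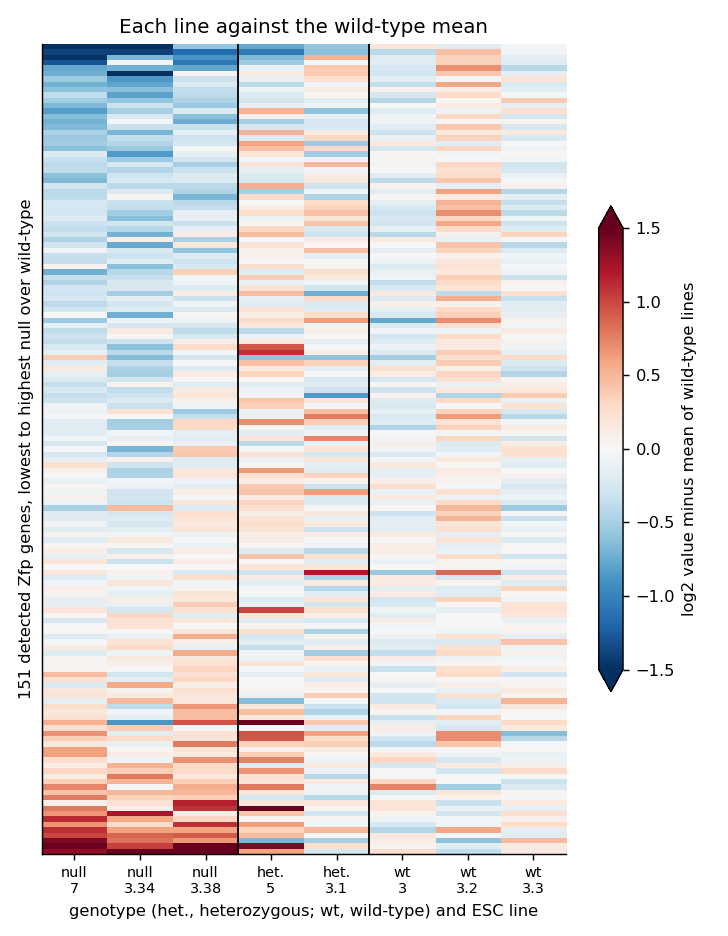
Log2 value of each of the 151 detected Zfp genes (rows, from lowest to highest null over wild-type) in each ESC line (columns), minus the mean of the wild-type lines. Red is higher and blue is lower. Null line 3.38 is paler than the other null lines in the upper rows, and wild-type line 3.2 is red in many of them.

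The lines of null and wild-type did not overlap for 33 of the 151 genes (21.9%), against 22.4% of all genes and 33.6% of detected genes. Of these, 11 (7.28%) were higher in null lines, against 11.1% of all genes and 17.8% of detected genes, and 22 (14.6%) were lower, against 11.2% and 15.8%. Some of the 33 entered through the genotype in which they were high. Among the 102 genes detected in every array, 25 (24.5%) did not overlap, 8 (7.84%) of them higher and 17 (16.7%) lower in null lines. Besides Zfp57, Zfp936 and Zfp740, the genes higher without overlap included Zfp106, Zfp296, Zfp598, Zfp692, Zfp473, Zfp335 and Zfp93, with log2 fold changes of 0.36 to 0.96 and adjusted p of at least 0.113. Besides Zfp207, Zfp946 and Zfp507, those lower without overlap included Zfp644, Zfp655, Zfp451, Zfp263, Zfp386, Zfp217 and Zfp280c, with log2 fold changes of −0.76 to −0.51 and adjusted p of at least 0.0785. None of these 14 passed, so the values below describe the lines only. With the 3′ minus 5′ value in the model the 7 higher genes ran from 0.013 for Zfp598, 0.056 for Zfp106 and 0.057 for Zfp692 to 0.80 for Zfp335, and the 7 lower genes from −0.92 for Zfp386 to −0.14 for Zfp217.

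Genes with roles in imprinting and the silencing of retroelements were few. Of 7 measured, 5 were detected, and among these Zfp57 rose, none fell, and 4 did not pass the test (median log2 fold change 0.08). Zfp445, which acts with Zfp57 at imprinted regions, measured 7.40, 7.73 and 7.81 in null lines, 7.82 and 8.14 in heterozygous lines and 7.85, 8.29 and 7.92 in wild-type lines. Its null lines lay just below all others (log2 fold change −0.38 ± 0.17, adjusted p = 0.318), opposite in sign to Zfp57. Zfp809, which silences murine leukaemia proviruses, had a log2 fold change of 0.29 ± 0.17 (adjusted p = 0.474), and Zfp568, a repressor of a placental Igf2 transcript, had −0.13 ± 0.31 (adjusted p = 0.906).

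The corepressor that these KRAB proteins share showed no call. Of 22 measured genes of the KAP1 machinery, 19 were detected by the same rule. Over all 22, detected or not, 11 had a higher and 11 a lower mean in null lines. None passed an adjusted p under 0.05, and the median log2 fold change was −0.01. Trim28, which encodes KAP1 itself, had −0.16 ± 0.18 (adjusted p = 0.776), and Setdb1 had 0.41 ± 0.18 (adjusted p = 0.292). Ehmt2, which encodes the histone methyltransferase G9a, came nearest to the threshold, with 7.68, 6.42 and 6.53 in null lines, 5.27 and 4.87 in heterozygous lines and 4.80, 4.31 and 5.51 in wild-type lines (log2 fold change 2.00 ± 0.39, adjusted p = 0.0528). It is named after its value was seen, and its probe set was detected in only 5 of the 8 lines.

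Of 7 detected Zfp genes linked to ESCs and the early embryo, Zfp57 rose, 6 did not pass, and 5 of the 7 had a lower mean in null lines. Zfp207, whose probe sets differ in direction, is counted among the lower by its chosen one. Zfp296, a factor known to aid reprogramming to pluripotency, measured 7.48, 6.97 and 6.96 in null lines, 6.71 and 6.86 in heterozygous lines and 5.94, 6.96 and 6.23 in wild-type lines. Wild-type line 3.2 reached the level of the lower null lines (log2 fold change 0.77 ± 0.26, adjusted p = 0.18). Without wild-type line 3.2 the log2 fold change was 1.06. Zfp217, a CoREST-associated gene amplified in human breast cancer, measured 6.80, 7.16 and 6.93 in null lines, 7.33 and 7.41 in heterozygous lines and 7.48, 7.60 and 7.35 in wild-type lines (log2 fold change −0.51 ± 0.12, adjusted p = 0.0858). All null lines lay below all others.

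Among the 11 detected genes tied to chromatin, 8 had a lower mean in null lines, none passed, and the median log2 fold change was −0.23. Zfp451, a SUMO ligase, measured 6.93, 6.92 and 7.17 in null lines, 7.48 and 7.68 in heterozygous lines and 7.61, 7.64 and 7.39 in wild-type lines (log2 fold change −0.54 ± 0.12, adjusted p = 0.0785). Zfp644, which recruits G9a in human cells, measured 6.09, 6.14 and 6.08 in null lines, 6.77 and 7.26 in heterozygous lines and 6.60, 7.55 and 6.44 in wild-type lines. Its null lines lay close together while its wild-type lines spanned over 1 log2 unit (log2 fold change −0.76 ± 0.27, adjusted p = 0.206). Zfp462, another heterochromatin factor of ESCs, had −0.50 ± 0.18 (adjusted p = 0.205), and its null and wild-type lines overlapped.

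RNA-linked and ribosome-linked genes showed both signs, 5 higher and 4 lower of 9, with none passing and a median log2 fold change of 0.17. Zfp207 and Zfp622, whose probe sets differ in direction, are counted among the lower by their chosen ones. Zfp598, the ubiquitin ligase that senses collided ribosomes, measured 7.66, 7.12 and 6.86 in null lines, 6.56 and 6.59 in heterozygous lines and 6.49, 6.53 and 6.63 in wild-type lines. Heterozygous and wild-type lines lay close together and null lines above them (log2 fold change 0.66 ± 0.19, adjusted p = 0.122, but 0.013 with the 3′ minus 5′ value in the model). Zfp106, an RNA-binding protein needed by motor neurons, measured 9.23, 8.66 and 8.49 in null lines, 7.15 and 7.34 in heterozygous lines and 7.96, 7.23 and 8.32 in wild-type lines. Its log2 fold change was 0.96 ± 0.29 in null over wild-type lines (adjusted p = 0.141, but 0.056 with the 3′ minus 5′ value in the model) and 1.55 ± 0.32 in null over heterozygous lines (adjusted p = 0.0838).

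The 2 remaining lists held little movement. Of 5 detected genes tied to DNA repair and stress, none passed, and apart from Zfp451 their log2 fold changes ran from −0.18 for Zfp110, which encodes a partner of the p75 neurotrophin receptor, to 0.31 for Zfp830, a splicing-linked gene needed by the inner cell mass. Only 2 of 9 measured lineage genes were detected, Zfp423 and Zfp516, both regulators of fat cell fate. Zfp423 measured 6.15, 6.09 and 5.97 in null lines, 6.73 and 6.08 in heterozygous lines and 5.50, 6.51 and 5.38 in wild-type lines (log2 fold change 0.27 ± 0.29, adjusted p = 0.754). Zfp516 had 0.30 ± 0.27 (adjusted p = 0.682).

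The genes with the highest mean on their own probe sets were Zfp622, Zfp330, Zfp655, Zfp982, Zfp207, Zfp110, Zfp106 and Zfp518b, whose brightness cannot be ranked as RNA amount between probe sets. Zfp982, from a cluster on chromosome 4, measured 7.99, 8.47 and 8.45 in null lines, 8.81 and 9.17 in heterozygous lines and 7.77, 9.24 and 8.59 in wild-type lines. The wild-type lines alone spanned more than the null and heterozygous lines together, and the log2 fold change was −0.23 ± 0.33 (adjusted p = 0.839). Zfp655 measured 8.27, 7.94 and 8.49 in null lines, 8.70 and 9.06 in heterozygous lines and 8.64, 8.78 and 9.01 in wild-type lines (log2 fold change −0.57 ± 0.18, adjusted p = 0.147).

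Different probe sets of a gene could be set beside each other. The 151 genes carry 295 probe sets that name 1 gene, and 41 genes had more than 1 detected probe set. Null and wild-type lines differed in the same direction on all of these probe sets in 25 genes and in different directions in 16, and the log2 fold changes spanned more than 1 unit across differing signs in Zfp207 and Zfp622. In a fit of all 34945 probe sets, of which 0.919% passed an adjusted p under 0.05, 3 probe sets of Zfp genes passed as higher and 2 as lower. Besides the probe sets of Zfp57, Zfp740 and Zfp946, these were 1434752_at of Zfp207 and 1425030_at of Zfp622.

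For Zfp207, probe set 1434752_at measured 3.44, 3.42 and 3.50 in null lines, 3.57 and 3.66 in heterozygous lines and 4.05, 4.37 and 4.06 in wild-type lines (log2 fold change −0.71 ± 0.11, adjusted p = 0.0436). Probe set 1423545_a_at of the same gene measured 7.55, 6.99 and 7.45 in null lines, 6.68 and 5.85 in heterozygous lines and 6.46, 5.57 and 7.03 in wild-type lines (log2 fold change 0.97 ± 0.37). The chosen and the first of these were lower in null lines and the other had the higher mean there, so no single direction can be given for Zfp207.

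Zfp622, which acts in the maturation of the large ribosomal subunit, differed in the same way between its probe sets. Its chosen probe set, an _x_at set that can share probes with other transcripts, measured 9.50, 9.68 and 9.74 in null lines, 9.83 and 10.36 in heterozygous lines and 9.95, 10.40 and 9.81 in wild-type lines (log2 fold change −0.41 ± 0.19, adjusted p = 0.34). Probe set 1425030_at measured 5.21, 4.98 and 5.03 in null lines, 3.65 and 4.12 in heterozygous lines and 3.95 to 4.22 in wild-type lines (log2 fold change 1.01 ± 0.15, adjusted p = 0.0405). All null lines lay above all other lines on this probe set and below them on the chosen one. Of the chosen probe sets of the 151 genes, 12 end in _x_at and 8 in _s_at, the classes in which probes may match more than 1 transcript. The place of each probe set along its transcript was not analysed here.

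**Figure D4:**
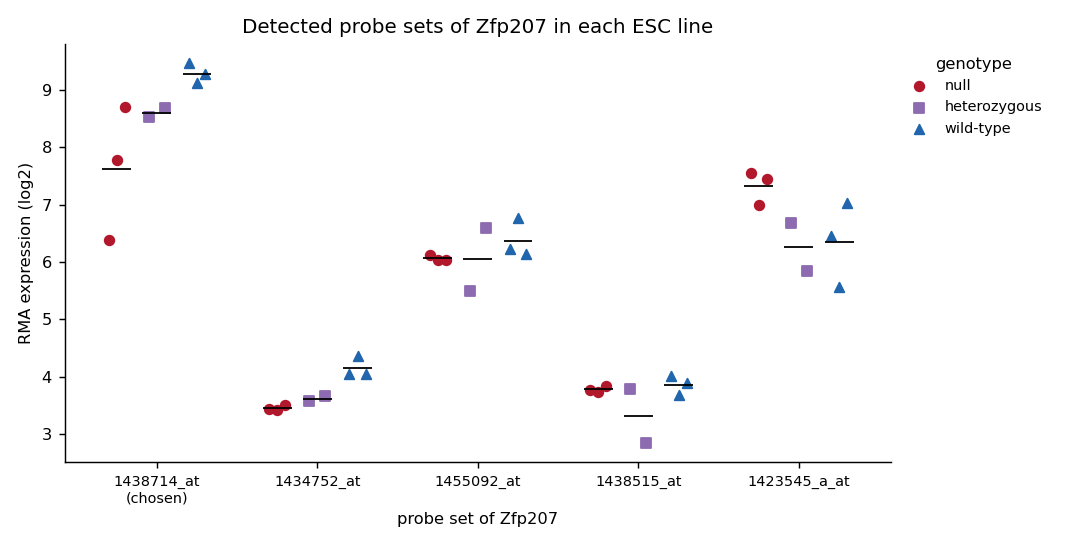
RMA expression (log2, y axis) on the 5 detected probe sets of Zfp207 (x axis, from the lowest to the highest null over wild-type fold change) in null, heterozygous and wild-type ESC lines. Each point is 1 line and each bar the mean of its genotype. The chosen probe set and 1434752_at are lower in null lines, whereas 1423545_a_at has its highest mean there, and levels are not comparable between probe sets.

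Between null and heterozygous lines no Zfp gene passed an adjusted p under 0.05, nor did any gene on the array (0%). At an unadjusted p under 0.05 stood 27 Zfp genes (17.9%), against 13.8% of all genes and 27.0% of detected genes. Zfp106 and Zfp57 were past 2-fold (1.32% of the 151 genes, against 2.42% of all genes and 5.78% of detected genes). Of the 151 genes, 46 (30.5%) had every null line below both heterozygous lines, against 14.5% of all genes and 18.3% of detected genes, and 11 (7.28%) had every null line above both, against 13.3% and 21.4%. The median log2 fold change was −0.16, against −0.02 for all genes. Over the 102 genes detected in every array it was −0.25, and 34 of these lay lower without overlap. That median was −0.11 without heterozygous line 5, −0.16 with the 3′ minus 5′ value in the model and −0.13 with the mean of the probe sets of a gene. The share with a lower mean was 64.9% with both heterozygous lines, against 55.0% of all genes and 50.9% of detected genes, and it was 56.3% without line 5, with a median of −0.06. This comparison and that of null with wild-type share the null arrays.

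The lowest of these fold changes belonged to Zfp267, which measured 5.53, 4.71 and 6.31 in null lines, 6.39 and 6.65 in heterozygous lines and 5.99, 6.67 and 6.13 in wild-type lines. The log2 fold change over heterozygous lines was −0.997 ± 0.41 (adjusted p = 0.316), and null line 3.38 lay just below the heterozygous lines. Zfp644 (−0.91 ± 0.30), Zfp507 (−0.94 ± 0.36), Zfp715 (−0.78 ± 0.22) and Zfp317 (−0.77 ± 0.30) followed, with adjusted p of at least 0.153. Zfp692 measured 6.97, 6.52 and 6.55 in null lines, 5.94 and 5.76 in heterozygous lines and 6.16, 6.25 and 6.16 in wild-type lines. Its log2 fold change was 0.83 ± 0.16 in null over heterozygous lines (adjusted p = 0.0718), and its heterozygous lines were below both homozygous genotypes.

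Without wild-type line 3.2 in the fit, 346 genes on the array passed between null and heterozygous lines, among them Zfp106, Zfp57 and Zfp644. The fold changes were the same as before, and only the estimate of the spread had changed.

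Between heterozygous and wild-type lines, no Zfp gene passed an adjusted p under 0.05 and none was past 2-fold. Of all genes 0% passed and 0.335% were past 2-fold, and of detected genes 0% and 0.739%. At an unadjusted p under 0.05 stood 6 Zfp genes (3.97%), against 3.85% of all genes and 5.50% of detected genes. The lines did not overlap for 18 of the 151 genes (11.9%), against 17.3% of all genes and 16.7% of detected genes. The median log2 fold change was 0.04, and it was −0.03 without heterozygous line 5. Zfp229 gave the highest value, with 6.04 and 4.96 in heterozygous lines and 4.42, 4.39 and 4.86 in wild-type lines (log2 fold change 0.95 ± 0.51, adjusted p = 0.997). Among genes without overlap, Zfp936 (0.82 ± 0.32), Zfp931 (0.62 ± 0.24) and Zfp763 (0.54 ± 0.24) followed, each with an adjusted p of 0.997. Zfp955a, a gene of the zinc finger clusters of chromosome 17, measured 6.89 and 7.09 in heterozygous lines and 6.36, 6.70 and 6.33 in wild-type lines (0.53 ± 0.17, adjusted p = 0.997). Zfp946 gave the lowest value among genes without overlap, and Zfp207 (−0.68 ± 0.54), Zfp934 (−0.60 ± 0.32), Zfp839 (−0.38 ± 0.21) and Zfp692 (−0.34 ± 0.16) came next, each with an adjusted p of 0.997.

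Detection itself varied across genotypes. Besides the 102 genes detected in every array, 11 were detected throughout null lines only, 11 throughout heterozygous lines only and 7 throughout wild-type lines only, and 20 throughout a pair of genotypes. A genotype of 2 lines is easier to fill than a genotype of 3. The genes detected in every line of 1 genotype and in no line of another were Zfp740 and Zfp33b, Zfp386, Zfp605, Zfp712, Zfp771, Zfp82, Zfp866 and Zfp972. Zfp386 was detected in no null line and in every other line, and measured 3.22, 3.14 and 3.27 in null lines, 3.46 and 3.56 in heterozygous lines and 3.31, 3.76 and 4.13 in wild-type lines. It was 1.44-fold lower in null than in wild-type lines (adjusted p = 0.208). Zfp740, described above, was 1.91-fold higher in null than in wild-type lines. For the others, the fold of a detecting genotype over one that did not detect them ran from 1.01 to 1.27 where above 1. No adjusted p of these was under 0.408, and with so few lines that does not show that their levels were alike.

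The last genes inside the detection limit were Zfp972, Zfp354c and Zfp397, whose highest Detection p-value in their best genotype was 0.0376, 0.0461 and 0.0461. The first outside were Zfp160, Zfp354b and Zfp408, each at 0.0562.

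Over all chromosomes 151 of 328 measured Zfp genes were detected. The share varied between chromosomes, most of which hold few of these genes, and this was not tested. On chromosome 7, 31 of 83 measured Zfp genes were detected, and on chromosome 17, 22 of 43. The share was 4 of 21 on chromosome 11 and 3 of 17 on chromosome 6, and all 5 were detected on chromosome 12. Of the 151 genes, 45 stood in 11 runs of at least 3 detected genes, each at most 5 protein-coding genes from the next in the RefSeq order.

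The longest run, on chromosome 17, held Zfp677, Zfp51, Zfp52, Zfp760, Zfp229, Zfp995, Zfp942, Zfp944 and Zfp946. In null lines 8 of these 9 genes had a lower mean than in wild-type lines (median −0.27 on the log2 scale), and all 9 had a lower mean than in heterozygous lines, with a median of −0.30. Zfp946 alone passed the test. Zfp677 measured 3.54, 3.47 and 3.59 in null lines, 3.79 and 3.87 in heterozygous lines and 3.92, 4.16 and 3.66 in wild-type lines (log2 fold change −0.38 ± 0.14, adjusted p = 0.207), and its null lines were below all others. Zfp942 measured 2.79, 2.99 and 2.83 in null lines, 3.13 and 3.11 in heterozygous lines and 3.06, 3.32 and 3.05 in wild-type lines (−0.27 ± 0.11, adjusted p = 0.28), again with no overlap. Zfp677 was detected in 2 of 3 null lines, both heterozygous lines and 1 of 3 wild-type lines. Zfp942 was detected in 1 of 3 null lines and in every other line. Both thus entered through genotypes in which they were higher than in null lines, and the values of Zfp942 lay near the lowest on the arrays (2.28). Zfp229 was the exception, with 5.08, 3.69 and 5.50 in null lines against the wild-type values given above (0.20 ± 0.46, adjusted p = 0.904). Without wild-type line 3.2, 8 of 9 were lower than in wild-type lines and the median was −0.16. Within the litter-matched pairs 6 of 9 were lower and the median was −0.10. Against heterozygous lines the median was −0.17 with the 3′ minus 5′ value in the model (8 of 9 lower), −0.17 with the mean of probe sets and −0.61 with the signal intensities. Whether their probe sets read one another's transcripts was not tested.

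The next run on the same chromosome, from Zfp871 to Zfp763, had 4 of 4 means lower in null than in wild-type lines, with log2 fold changes of −0.19 to −0.05. The run of Zfp991, Zfp982 and Zfp979 on chromosome 4 had 3 of 3 lower in null than in heterozygous lines, with a median of −0.52, and so did the run from Zfp607b to Zfp850 on chromosome 7, with a median of −0.12. The run on chromosome 8, from Zfp930 to Zfp866, had 4 of 4 higher in null than in heterozygous lines, with a median of 0.19. Of that run, Zfp866 was detected in no heterozygous line and entered through the null genotype alone, where it was higher. Zfp607b of the chromosome 7 run was detected in 2 of 3 null and 2 of 3 wild-type lines. It thus entered through the heterozygous genotype alone, where its mean was higher than in null lines. No gene of these 4 runs passed in any comparison. They were named for their uniform sign, and the runs not named held both signs in both comparisons with null lines.

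**Figure D5:**
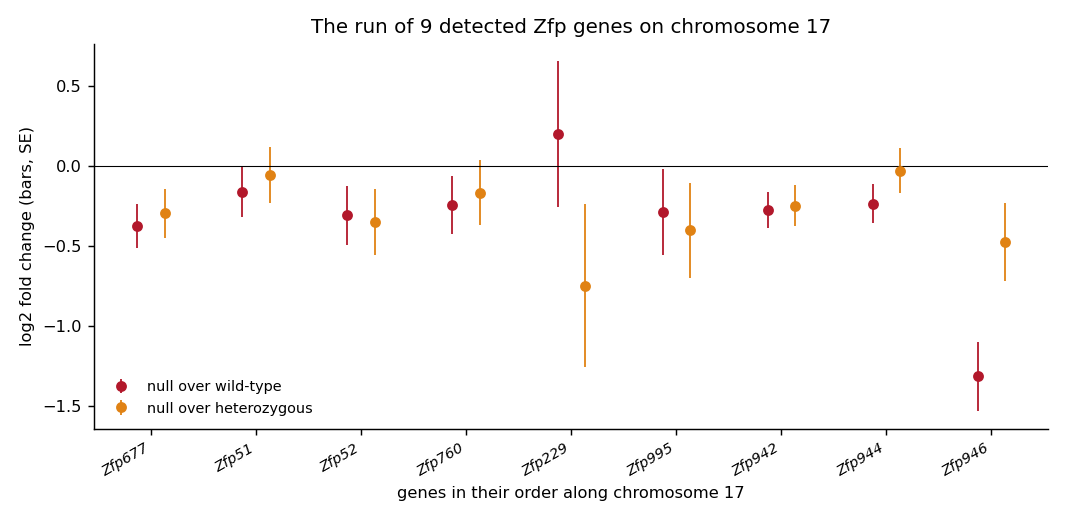
Log2 fold change (y axis, with SE as bars) of the 9 detected Zfp genes of the chromosome 17 run, in their order along the chromosome (x axis), for null over wild-type lines and for null over heterozygous lines. Zfp946, at the end of the run, is the lowest against wild-type lines (−1.32), and Zfp229 is the 1 gene with a positive mean difference (0.20).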

How the data were processed

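RNA of 8 ESC lines (3 null, 2 heterozygous and 3 wild-type, grouped by the sample labels) was hybridised to 1 array each. The authors normalized the arrays by RMA and deposited log2 values per probe set. The deposited tables of each array also hold linear signal intensities, made by the Affymetrix software (scaling not given in the sources used here), and a Detection p-value and call for each probe set. The authors named RMA and limma, versions not given in the sources used here. Every column of log2 values correlated best with the signal intensity of its own array.

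Of 45101 probe sets, 64 controls were left out, and 34945 named a single gene in the platform annotation, 932 several and 9160 no listed gene. Each of 18193 genes was read from the probe set with the highest mean. Genotypes were compared with limma 3.58.1 in R 4.3.3 (lmFit, eBayes) on all 8 arrays, with Benjamini-Hochberg adjustment over all genes, at an adjusted p under 0.05 and at 2-fold, the threshold of the study's methods. The procedure was tested on simulated data. The number of arrays limits the precision. Some probe sets were detected in no line of a genotype. Their value in each array of that genotype was raised, where lower, to the dimmest probe set detected there. This step left the folds of Zfp740 and Zfp386 unchanged, and all such folds are estimates, not lower bounds. Alternatives were another normalization, gene summary, prior, set of genes or genotypes, the signal intensities, the 3′ minus 5′ difference as a term, leaving out lines, and a litter block. The study's legends pair null line 7 with wild-type line 3 and null line 3.38 with wild-type line 3.3 by litter. Over all genes the deviations of these pairs from their genotype means correlated at 0.097 and 0.038, and those of the crossed pairs at 0.050 and −0.039. No litter is named there for the other lines.

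The Zfp genes, the gene lists and the rules were chosen with earlier results of these data known. Genes were named if they passed, if they had the 10 highest or lowest fold changes without overlap of null and wild-type lines (5 in the other comparisons), if detected throughout 1 genotype and in no line of another, or if among the 8 with the highest mean, the 4 smallest p of a list, or the 3 nearest the detection limit on either side. The lists were imprint and retroelement silencing, ESC and early embryo, chromatin, RNA and ribosome, lineage, DNA repair and stress, the KAP1 machinery, and pluripotency, feeder fibroblast and endoderm markers. All 151 genes matched RefSeq by Entrez identifier. Protein sequences were not analysed here.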

Additional observations from a re-analysis of the deposited data

How the results depend on the processing

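The number of Zfp genes at an adjusted p under 0.05 between null and wild-type lines was 3. It was 0 with the 3′ minus 5′ value of each array as a term, 0 with the signal intensities in place of RMA values, and 0 without wild-type line 3.2 and heterozygous line 3.1 together, an alternative chosen after seeing the data because these lines had the lowest share of probe sets called Present in their genotype. Under both of the first, 0 of all 18193 genes passed, against 206. On leaving out a single line the number ran from 0 to 4, and 1 gene, Zfp207, passed without null line 3.38. With only the detected genes, with only the 2 genotypes compared and with a trended, robust prior it was 4, Zfp936 being added. Of 18 alternatives, Zfp57 and Zfp946 each lost the call under 9 and Zfp740 under 10, with log2 fold changes of 1.24 to 1.83, −1.67 to −1.05 and 0.84 to 1.02. Of 20 named genes, 18 kept their sign under all 18 alternatives, the exceptions being Zfp207 (0.014) and Zfp507 (0.020) with the 3′ minus 5′ term. The cause was not tested, and genotype and RNA quality cannot be told apart here.

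The count past 2-fold between null and wild-type lines was 5 and it was 3 with the mean of the probe sets of a gene. Between heterozygous and wild-type lines it was 0, against 6 with the signal intensities, 7 without both lines named above, and 0 to 6 on leaving out a single line. Between null and heterozygous lines it was 2, against 8 with the 3′ minus 5′ term, 1 with the mean of probe sets, 4 with quantile normalization, 13 with the signal intensities, 6 without both lines, and 2 to 8 on leaving out a single line. There the adjusted p was under 0.05 for 0 genes, for 2 (Zfp106 and Zfp57) when only detected genes were fitted, and for 0 to 3 on leaving out a single line. The median log2 fold change of the 151 genes between heterozygous and wild-type lines was 0.17 with the signal intensities, 0.19 without both lines and −0.026 to 0.091 on leaving out a single line, being negative without heterozygous line 5 and without wild-type line 3 (−0.0008). Between null and heterozygous lines it was −0.34 with the signal intensities.

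Leaving out a heterozygous line left 1 such line, assumed to vary like the others. The litter blocks were added after seeing the data, and the fit of the matched pairs alone holds few lines for its terms. Within the 2 litter-matched pairs of null and wild-type lines, with litter as a replicate block, 3 Zfp genes passed (Zfp57, Zfp936 and Zfp946), 7 were past 2-fold and the median log2 fold change was 0.0077, opposite in sign to that over all lines. With litter as a random replicate block over all 8 lines, lines of unknown litter standing alone, no call of a Zfp gene changed. Signal over background limits 49 of the 151 genes, which at least 1 genotype did not detect in every line.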
